A study of Mus musculus with 12 samples.

Results

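One week after the withdrawal of dexamethasone (DEX) is described here against control in sorted mouse pituitary corticotrophs, from 6 of the 12 RNA-seq libraries of the series. The comparison took the 3 libraries of the 1 week group and the 3 of the control group, and every gene above 0.1 in at least 3 of the 12 libraries, which kept 24736 of 55304 genes. All mice were males carrying a *Pomc*-eGFP transgene on a C57Bl6/J background, and they entered the experiment at 8 weeks of age. The 1 week group drank DEX, a synthetic glucocorticoid, at 2.5 µg/ml for 4 weeks and then plain water for 7 days, whereas the control group drank plain water throughout. A DEX group taken at the end of treatment and a group taken 28 days after withdrawal are used only for context. Each library was a pool of 2 or 3 anterior pituitaries from cage mates, with the intermediate and posterior lobes removed, from which living eGFP-positive single cells were sorted. Because the *Pomc* promoter drives the eGFP, the gate that defined the cells rested on the activity of the gene whose RNA was then measured.

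Corticotrophs are the anterior pituitary cells that make adrenocorticotrophic hormone (ACTH), which is cut from the precursor pro-opiomelanocortin, the product of *Pomc*. Hypothalamic corticotrophin-releasing hormone and vasopressin act on these cells through the receptors CRHR1 and AVPR1B, and drive *Pomc* transcription and ACTH release. Glucocorticoids from the adrenal act back on the corticotroph through the glucocorticoid receptor to repress *Pomc*, and they directly induce a set of target genes such as *Fkbp5*. Prolonged glucocorticoid treatment silences this axis, and the pituitary has to resume ACTH production before the adrenal recovers.

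The 6 libraries held between 7719894 and 11443517 reads on genes. All values below are normalised counts, which are read counts that the authors scaled for library size and composition, and single values are given in the order of pools 1, 2 and 3. One read was worth 0.0787 to 0.127 on this scale in these libraries, so values well under 1 rest on a few reads. *Gh* and *Prl*, the hormone genes of somatotrophs and lactotrophs, were present in every pool. *Gh* took 8.76%, 10.4% and 20.3% of the reads in control and 9.23%, 15.5% and 17.7% at 1 week, while *Pomc* took 8.25%, 3.80% and 6.82% in control and 15%, 20% and 4.33% at 1 week. The defining corticotroph genes were therefore detected in all pools, but *Gh* exceeded *Pomc* in every control pool and in the third 1 week pool. The third 1 week pool stood apart by its low corticotroph transcripts. The main counts, the corticotroph markers and some list medians are given with and without it. For most of the leading genes the values of single pools are given instead. In bulk libraries of this kind, fewer cells of a type and less RNA per cell cannot be told apart.

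No gene passed an adjusted p of 0.05 between 1 week and control in limma, with a percentage called of 0.0. The smallest adjusted p was 0.0674, shared by *Ly6g6c* and *Hmmr*. At an unadjusted p under 0.05 there were 938 genes (3.79%), of which 447 were higher and 491 lower at 1 week. Among the other tools, edgeR's quasi-likelihood test called 1 gene (0.00404%), *Ly6g6c*, DESeq2 called 13 genes (0.0526%) and edgeR's likelihood ratio test called 51 (0.206%). The size of a difference could be large without passing: 1240 genes (5.01%) had a log2 fold change above 1 and 1387 (5.61%) one below -1. In 858 genes (3.47%) all 3 of the 1 week pools lay above all 3 control pools, and in 646 genes (2.61%) all lay below. The spread between pools was wider at 1 week than in the other groups, with 61.4% of genes ranging over more than 2-fold, against 50.8% in control, 41.7% in DEX and 38.4% at 4 weeks.

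The 1 week pools did not depart from control in equal measure. In pool 1, 15.8% of genes lay more than 2-fold from the control mean, against 31.2% in pool 2 and 27.9% in pool 3. Pools 1 and 2 shared a position above all control pools in 2246 genes (9.08%) and below in 2042 (8.26%). In 1388 (5.61%) and 1396 (5.64%) of the genes, respectively, pool 3 did not share that position. Without pool 3, limma called 2 genes (0.00809%), *Ly6g6c* and *Hmmr*, both higher at 1 week and both with an adjusted p of 0.0369, and 1868 genes (7.55%) had an unadjusted p under 0.05.

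The 6 corticotroph markers split the 1 week pools. *Pomc* was counted at 74260, 34562 and 74221 in control and at 149459, 284740 and 43612 at 1 week. The first and second 1 week pools lay above all controls, whereas the third lay between the lowest and the middle control pool. The log2 fold change was 1.09 ± 1.10 (SE, n = 3 pools against 3), with an adjusted p of 1.00 in limma and a two-sided exact permutation p of 0.3, where 0.1 is the smallest that 3 against 3 can give. Without the third 1 week pool the log2 fold change was 1.84, without the second 0.49 and without the first 0.95. Leaving out a control pool gave 0.73 to 1.28. The highest *Pomc* value was 6.53 times the lowest at 1 week, a ratio of 2.15 in control, 2.01 in DEX and 1.66 at 4 weeks. *Pcsk1*, the prohormone convertase that cuts pro-opiomelanocortin to ACTH, was counted at 521, 359 and 155 in control and at 595, 838 and 193 at 1 week. As for *Pomc*, pools 1 and 2 were above all controls and pool 3 lay inside the control range.

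The genes that set corticotroph identity and its input did not share that pattern. *Tbx19*, the transcription factor required for the corticotroph lineage, was counted at 459, 229 and 218 in control and at 282, 385 and 39.5 at 1 week. *Crhr1* was counted at 189, 95.2 and 85.5 in control and at 125, 201 and 12.5 at 1 week. *Avpr1b* was counted at 60.0, 25.6 and 12.1 in control and at 40.0, 36.7 and 1.56 at 1 week. For these 3 genes pool 3 was the lowest of the 6 pools, below every control, while pools 1 and 2 lay within the control range except for *Crhr1* in pool 2, which lay just above it. *Neurod1*, a partner of TBX19 at the *Pomc* promoter, was counted at 44.3, 22.3 and 22.4 in control and at 65.8, 23.1 and 10.8 at 1 week, again with pool 3 lowest. The log2 fold changes of *Tbx19*, *Crhr1*, *Avpr1b* and *Neurod1* were -0.81, -0.76, -0.98 and -0.14. Without pool 3 all 4 were of the opposite sign, at 0.21, 0.46, 0.53 and 0.47, so the negative values rested on that pool. Over the 6 markers the median log2 fold change was -0.45, and 0.50 without pool 3, against 0.0022 over all genes tested.

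**Figure D1:**
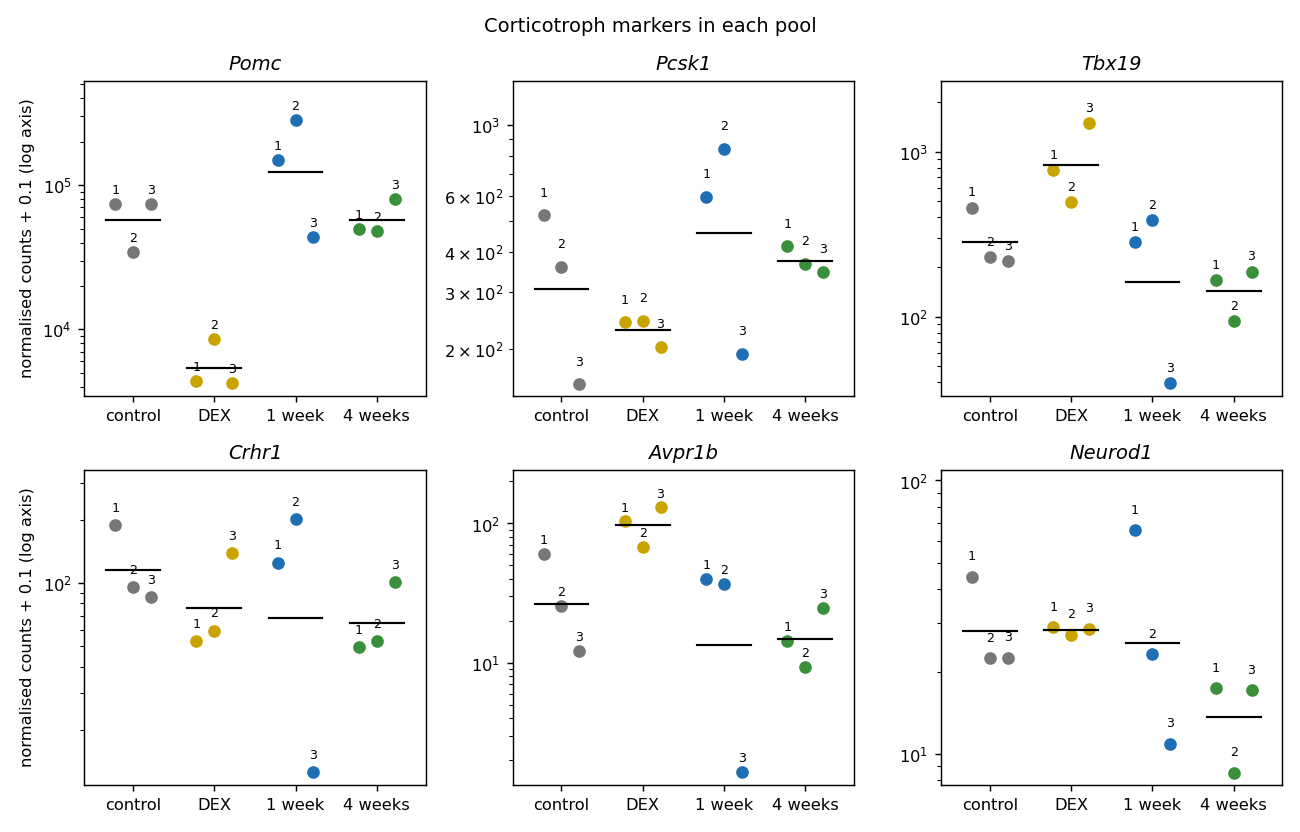
Normalised counts plus 0.1 on a log axis for 6 corticotroph markers in the 3 pools of each group. Points are pools, labelled by number, and bars are means on the log scale. Pools 1 and 2 of the 1 week group lie above all controls for *Pomc* and *Pcsk1*, and pool 3 lies lowest of the control and 1 week pools for *Tbx19* (39.5), *Crhr1* (12.5), *Avpr1b* (1.56) and *Neurod1* (10.8).

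*Pomc* was also set against other corticotroph transcripts of the same pool. These ratios were chosen after the values were seen and are a description. The ratio of *Pomc* to *Tbx19* was 162, 151 and 341 in control and 530, 739 and 1105 at 1 week. All 3 of the 1 week pools were above all controls, with pool 3 the highest, and the log2 difference was 1.90 ± 0.49 (SE, n = 3 pools against 3, two-sided exact permutation p = 0.1). The ratio of *Pomc* to *Crhr1* was 394, 363 and 868 in control and 1198, 1418 and 3503 at 1 week, also without overlap. Relative to *Avpr1b* the 1 week pools spread from 3735 to 28020, and relative to *Avpr1b*, *Neurod1* and *Pcsk1* the groups overlapped, with log2 differences of 2.10 ± 1.13, 1.24 ± 0.80 and 0.52 ± 0.72.

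Of the genes above control in every 1 week pool, *Ly6g6c* had the smallest p. *Ly6g6c*, which encodes a small cell surface protein of the Ly-6 family and lies on chromosome 17 from 35065388 to 35070050 (GRCm38), was counted at 1.18, 0.825 and 0.979 in control and at 25.6, 90.4 and 20.7 at 1 week. Every 1 week pool lay far above every control, and pool 2 was the highest. The log2 fold change was 5.07 ± 0.71 in limma, with an adjusted p of 0.0674, and the adjusted p was 0.00568 in edgeR's quasi-likelihood test and 2.44e-14 in DESeq2. In the other groups it was counted at 0.580, 0.327 and 0 in DEX and at 3.42, 2.08 and 5.50 at 4 weeks. Against DEX the log2 fold change at 1 week was 6.89, with an adjusted p of 0.000665 in limma.

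*Nmb* encodes neuromedin B, a bombesin-like peptide made in the pituitary, and lies on chromosome 7 from 80902227 to 80905076. It was counted at 11.7, 11.9 and 20.7 in control and at 64.5, 162 and 41.5 at 1 week. Every 1 week pool lay above every control, and pool 2 was the highest, as for *Pomc*. The log2 fold change was 2.40 ± 0.45 with an adjusted p of 0.358 in limma and 0.000358 in DESeq2. *Nmb* stood at 1.49, 2.21 and 2.24 in DEX, so that from DEX to 1 week it rose by 5.21 on the log2 scale with an adjusted p of 0.000119 in limma. *Ttyh1*, which encodes a chloride channel family protein, was counted at 45.9, 51.8 and 71.9 in control and at 128, 329 and 85.2 at 1 week, a log2 fold change of 1.46 ± 0.37 without overlap. *Mfge8*, which encodes a secreted protein that bridges dying cells to phagocytes, was counted at 56.0, 56.9 and 99.5 in control and at 163, 534 and 116 at 1 week, with a log2 fold change of 1.67 ± 0.44. In all 3 of *Nmb*, *Ttyh1* and *Mfge8* the order of the 1 week pools was the same, with pool 2 highest and pool 3 lowest.

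Further genes met the rule for the smallest p among those without overlap. *Chil3*, a chitinase-like gene of myeloid cells with near-identical relatives, was counted at 2.52, 2.12 and 4.02 in control and at 8.37, 9.18 and 11 at 1 week. *Sprr1a*, a small proline-rich protein gene induced by injury, was counted at 1.89, 1.41 and 0.326 in control and at 8.75, 6.50 and 4.11 at 1 week. The other genes of this set were the cell cycle genes *Hmmr*, *Ccnb2*, *Ccnb1*, *Kntc1*, *Anln* and *Dtl*. A pair of genes of the set that leads without pool 3 had pool 3 at or below control level. *Pygm*, muscle glycogen phosphorylase, was counted at 8.18, 8.84 and 7.83 in control and at 34.5, 30.7 and 4.78 at 1 week. *Pycr1*, an enzyme of proline synthesis, was counted at 39.2, 30.5 and 33 in control and at 81.5, 131 and 36.6 at 1 week. For both, pools 1 and 2 were above all controls and the third pool was not.

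**Figure D2:**
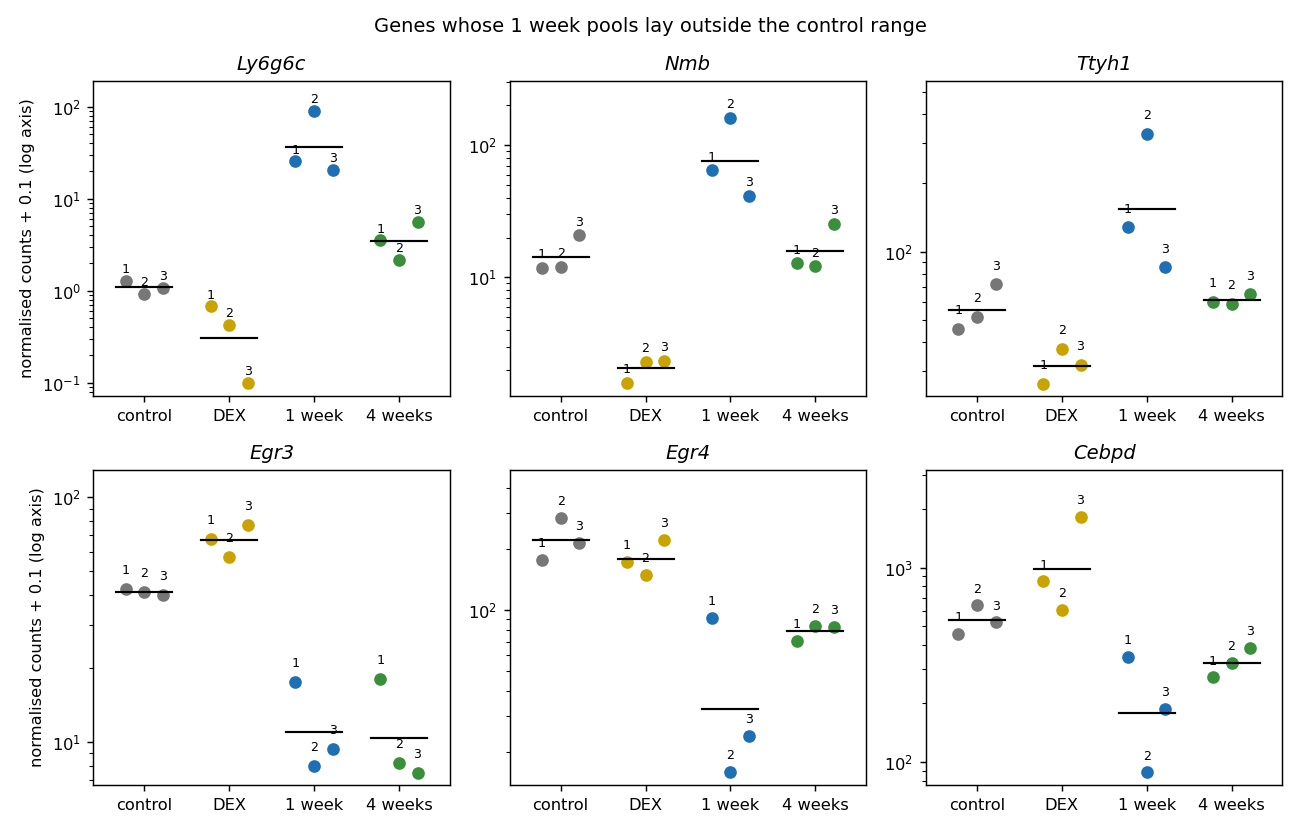
Normalised counts plus 0.1 on a log axis for 3 genes above and 3 genes below control in all 1 week pools, shown in all 4 groups. Points are pools, labelled by number, and bars are means on the log scale. *Ly6g6c* and *Nmb* at 1 week also lie above every DEX and 4 week pool, whereas *Egr3* lies at 7.40 to 18.0 at 4 weeks, overlapping with its 1 week pools.

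Genes of S phase and mitosis made up the list with the most members above control in every pool. Of 35 listed genes, all of which were tested, 14 lay above all controls in all 3 of the 1 week pools and none below, where 3.47% and 2.61% of all genes did so. None was called in limma, and 17 had an unadjusted p under 0.05 in the higher direction, against 1.81% of all genes. The median log2 fold change over the list was 1.51, and 31 of the 35 were positive, against 50.2% of all genes. Pool by pool, the median difference of the list from its control mean was 2.15, 1.51 and 0.41 on the log2 scale at 1 week, and -0.06, 0.09 and 0.30 in control. By this median pools 1 and 2 carried most of the difference, and pool 3 lay just above the controls. The summed levels were 570, 450 and 207 at 1 week and 344, 317 and 202 in control, so by sum pool 3 lay inside the control range. In pools 1 and 2 together, 24 of the 35 lay above all controls, against 9.08% of all genes. The list was chosen with earlier results of these data known. Its members *Top2a*, *Ccnb1*, *Ccnb2*, *Hmmr*, *Anln*, *Pbk* and *Rrm2* are also among the genes that the study selected on these libraries. Its counts beside the shares of all genes are therefore a description and no independent evidence.

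All of these cell cycle transcripts were low. *Hmmr*, a spindle protein also known as a hyaluronan receptor, was covered by 1 read in each control pool and was counted at 7.89, 5.48 and 2.22 at 1 week. Its 146 reads against 3 gave a count ratio of 54.1 (exact 95% interval 18.1 to 265, counting error only). *Ccnb2* and *Ccnb1* encode the B cyclins that take cells into mitosis. *Ccnb2* was counted at 0.157, 0.707 and 0.652 in control and at 7.32, 5.23 and 4.00 at 1 week, and *Ccnb1* at 1.26, 0.825 and 1.74 in control and at 9.89, 8.67 and 4.00 at 1 week. Both were without overlap, with pool 3 the lowest of the 1 week pools, and with log2 fold changes of 3.34 ± 0.70 and 2.43 ± 0.55. *Top2a*, the topoisomerase that untangles replicated DNA, was counted at 0.865, 1.18 and 1.41 in control and at 14.4, 6.25 and 2.89 at 1 week. *Cdk1*, the kinase that the B cyclins activate, was counted at 0.393, 0.942 and 1.41 in control and at 5.51, 5.10 and 2.45 at 1 week. *Pbk*, a mitotic kinase gene, was counted at 0.629, 0.589 and 0.979 in control and at 20.5, 7.78 and 3.00 at 1 week. Each of these 3 genes showed the same order, highest in pool 1 and lowest in pool 3 but still above the controls.

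The other non-overlapping members were *Plk1*, *Bub1*, *Birc5*, *Cdc20*, *Anln*, *Rrm2*, *Ube2c* and *Foxm1*, whose products act in spindle assembly, chromosome segregation, cytokinesis, nucleotide supply and the transcription of mitotic genes. *Plk1* came closest to overlap, at 0.652 in the highest control and 0.667 in 1 week pool 3, which is a difference of less than the value of 1 read. *Mki67*, the proliferation marker Ki-67, overlapped, at 0.629, 0.353 and 1.41 in control and 6.75, 0.892 and 1.89 at 1 week. *Tpx2*, a spindle assembly factor, lay at 14.5 and 9.30 in pools 1 and 2 but at 1.78 in pool 3, inside the control range of 1.18 to 1.85. The other 21 listed genes overlapped with control, among them the replication genes *Mcm2* to *Mcm7*, *Pcna* and *Tyms*. Without 1 week pool 3 the median over the list was 1.79. *Cdkn1a*, which encodes the cell cycle inhibitor p21, lay below control in every 1 week pool, at 120, 108 and 69.4 against 173, 155 and 226. It was the only member without overlap among 15 listed CDK inhibitors and G1 cyclins. Of those, 8 had positive and 7 negative log2 fold changes, with a median of 0.13. *Cdkn1a* is also 1 of the 8 lower glucocorticoid induced targets counted below.

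**Figure D3:**
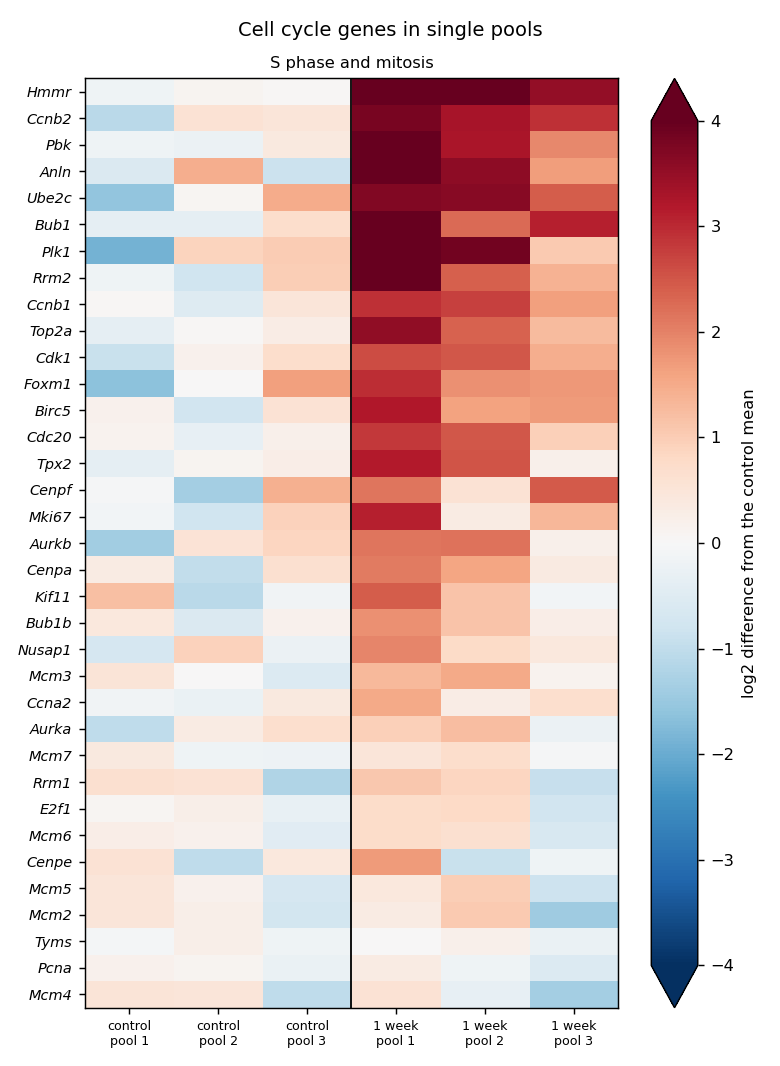
The 35 listed S phase and mitosis genes (rows, ordered by their mean at 1 week) in the 3 control and 3 pools of the 1 week group (columns). Colour gives the log2 difference from the control mean of log2(value + 0.1), cut at 4 in either direction. Most rows are red in 1 week pools 1 and 2 and paler in pool 3, with list medians of 2.15, 1.51 and 0.41.

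The promoters of these genes are shown because their members lay on the same side together and share known cell cycle elements. Windows from 250 bases before to 50 bases after the annotated start (RefSeq, GRCm38.p6) were searched on both strands for the cell cycle homology region (CHR, TTTGAA or TTCGAA) and for the CCAAT box. Of the 35 listed genes 29 had a window, and 17 of them (58.6%) held a CHR, where 21.7% of all 27025 genes with windows did. A CCAAT box was found in 24 (82.8%) against 41.1% of all genes, and both in 16 (55.2%) against 8.61%. A match is a description of the letters in the window and not a bound site. The windows printed here all hold both elements, whereas that of *Ccnb1*, not printed, held 2 CCAAT matches and no CHR. The windows of *Ccnb2* (chr9:70421505-70421804, minus strand), *Hmmr* (chr11:40733388-40733687, minus strand), *Plk1* (chr7:122159185-122159484, plus strand) and *Cdk1* (chr10:69352863-69353162, minus strand) are given 5′ to 3′ along the gene, with CHR and CCAAT matches on either strand in capitals.
*Ccnb2*: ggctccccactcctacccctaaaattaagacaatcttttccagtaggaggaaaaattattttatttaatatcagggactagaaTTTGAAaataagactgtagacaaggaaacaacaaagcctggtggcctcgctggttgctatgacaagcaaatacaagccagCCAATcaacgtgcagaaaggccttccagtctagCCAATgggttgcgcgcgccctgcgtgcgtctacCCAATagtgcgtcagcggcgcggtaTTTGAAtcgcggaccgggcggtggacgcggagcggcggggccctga
*Hmmr*: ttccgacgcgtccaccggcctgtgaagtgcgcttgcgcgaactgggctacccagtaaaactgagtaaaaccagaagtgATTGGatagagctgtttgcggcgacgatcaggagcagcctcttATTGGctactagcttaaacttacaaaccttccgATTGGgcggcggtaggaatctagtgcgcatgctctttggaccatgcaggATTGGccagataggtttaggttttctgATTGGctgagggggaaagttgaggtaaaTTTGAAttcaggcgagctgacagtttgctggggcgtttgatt
*Plk1*: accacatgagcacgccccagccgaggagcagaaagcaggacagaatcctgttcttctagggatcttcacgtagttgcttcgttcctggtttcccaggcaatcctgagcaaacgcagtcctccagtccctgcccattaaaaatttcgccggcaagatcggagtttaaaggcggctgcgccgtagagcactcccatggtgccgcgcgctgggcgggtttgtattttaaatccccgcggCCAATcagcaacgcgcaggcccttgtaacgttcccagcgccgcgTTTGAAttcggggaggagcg
*Cdk1*: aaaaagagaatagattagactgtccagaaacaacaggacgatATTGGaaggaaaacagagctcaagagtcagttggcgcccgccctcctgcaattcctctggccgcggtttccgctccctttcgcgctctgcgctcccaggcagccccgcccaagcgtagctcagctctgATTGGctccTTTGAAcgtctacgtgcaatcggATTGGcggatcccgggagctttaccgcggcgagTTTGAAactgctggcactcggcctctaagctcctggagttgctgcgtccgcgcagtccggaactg

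Among the genes below control in all 1 week pools, 2 members of the early growth response family had the smallest p. *Egr4*, on chromosome 6 from 85511121 to 85513589, was counted at 176, 283 and 214 in control and at 91.2, 15.8 and 23.9 at 1 week. All 3 of the 1 week pools lay below the lowest control, with pool 1 nearest to it. The log2 fold change was -2.75 ± 0.45, with an adjusted p of 0.154 in limma and 0.00508 in DESeq2. *Egr3*, on chromosome 14 from 70077203 to 70082614, was counted at 42.1, 40.8 and 39.7 in control and at 17.5, 7.90 and 9.23 at 1 week, with the same order of pools. Its log2 fold change was -1.90 ± 0.35, with an adjusted p of 0.358 in limma and 0.00562 in DESeq2. Both genes encode zinc finger transcription factors that neurons and endocrine cells switch on rapidly after stimulation.

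The other immediate early genes, which respond to stimulation and also to tissue dissociation, differed less. Of 25 listed genes 4 lay below all controls in every 1 week pool, *Egr3*, *Egr4*, *Jun* and *Fosl1*, and none above, against 2.61% and 3.47% of all genes. The list median was -0.43, with 22 of 25 negative, where 50.2% of all genes were positive. The list was chosen with earlier results of these data known, and *Egr3* is among the genes that the study selected on these libraries. *Jun* was counted at 1026, 935 and 1275 in control and at 760, 425 and 795 at 1 week, and *Fosl1* at 51.4, 42.9 and 35.6 in control and at 30.9, 27.9 and 9.12 at 1 week. *Egr1*, the most abundant member of the Egr family here, was counted at 3450, 3331 and 2072 in control and at 2180, 1678 and 1596 at 1 week, where pool 1 overlapped with the lowest control. *Nr4a1*, the nuclear receptor that acts on the *Pomc* promoter downstream of CRH, was counted at 2847, 3155 and 2488 in control and at 1886, 3367 and 1239 at 1 week, with pool 2 the highest of all 6. The listed heat shock and dissociation stress genes, 12 in number, had a median log2 fold change of -0.17, and -0.44 without pool 3, and no member without overlap. Their pool medians were -0.61, -0.59 and -0.09 at 1 week and -0.41, 0.00 and 0.56 in control, and their part in the values of the immediate early genes was not tested.

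The window of *Egr4* is shown because cyclic AMP signalling, through which CRH acts, reaches many immediate early genes by the sequence TGACG. Of the 25 listed genes 18 had a promoter window, and 13 of these (72.2%) held TGACG on either strand, against 23.0% of all genes. This motif is part of the full cyclic AMP response element TGACGTCA, so matches to the longer one count here too. *Egr4* held it 2 times (chr6:85513540-85513839, minus strand, matches in capitals and read on the opposite strand), whereas no window was listed for *Egr3*.
*Egr4*: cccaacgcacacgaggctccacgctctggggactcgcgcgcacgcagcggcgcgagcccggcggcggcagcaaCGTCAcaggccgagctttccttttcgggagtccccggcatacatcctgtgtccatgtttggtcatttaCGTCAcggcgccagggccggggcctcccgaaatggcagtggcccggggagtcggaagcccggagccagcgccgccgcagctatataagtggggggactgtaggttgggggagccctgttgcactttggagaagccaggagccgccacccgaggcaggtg

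Of the remaining genes that led below control, several encode signalling proteins. *Sphk1*, sphingosine kinase, was counted at 22, 25.4 and 12.2 in control and at 8.75, 1.15 and 1.56 at 1 week, a log2 fold change of -2.86 ± 0.74. *Socs1*, an inhibitor of cytokine signalling, was counted at 10.9, 12.4 and 15.6 in control and at 8.18, 2.93 and 4.67 at 1 week. *Cntfr*, a receptor subunit for ciliary neurotrophic factor, was counted at 5.98, 11.1 and 16.2 in control and at 5.51, 1.78 and 2.89 at 1 week. In all 3 genes pool 1 lay closest to control. *Emd*, the nuclear envelope protein emerin, was counted at 204, 314 and 346 in control and at 151, 115 and 65.2 at 1 week. *Obsl1*, a cytoskeletal adaptor, was counted at 88.2, 83.8 and 86.0 in control and at 42.1, 54.7 and 19.1 at 1 week, a log2 fold change of -1.28 ± 0.36. *Shisa6*, an auxiliary protein of glutamate receptors, was counted at 8.89, 0.707 and 2.50 in control and rested on 5 reads in all at 1 week against 142 in control, a count ratio of 0.0391 (exact 95% interval 0.0125 to 0.0934, counting error only). Of the control reads 113 came from pool 1, and the ratio was 0.111 without that pool and 0.0254 without 1 week pool 1. The predicted genes *Gm50394* and *Gm42809* also met the rule, with log2 fold changes of -2.26 and -1.88. Without pool 3, the leading lower genes were *Egr4*, *Egr3*, *Foxo3*, *Zfp598* and *Hcn3* with predicted genes of low count. *Foxo3*, a transcription factor of stress and starvation responses, was counted at 8.10, 7.54 and 20.9 in control and at 3.52, 3.06 and 14.9 at 1 week, with pool 3 inside the control range.

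Genes listed as induced by glucocorticoids lay lower at 1 week more often than higher. Of 22 listed targets 8 lay below all controls in every 1 week pool, against 2.61% of all genes, and 1 above, against 3.47%. None was called in limma, and the 10 with an unadjusted p under 0.05 were all lower, a direction in which 1.98% of all genes had such a p. The list median was -0.56, and -0.44 without pool 3. By pool it was -0.32, -0.67 and -0.57 at 1 week and -0.01, -0.07 and 0.06 in control, so that every 1 week pool lay below every control. Pool 3 thus shared the position of the other 2 pools for this list. The list holds genes that respond to other signals as well. It was chosen with earlier results of these data known, and *Fkbp5*, *Hif3a* and *Zbtb16* are among the genes that the study selected on these libraries. Its counts are therefore a description. In DEX the list median by pool was 0.78, 0.17 and 0.92, whereas the summed level was 7305 to 8987, against 8071 to 9256 in control. Membership of the list thus does not show that DEX raised each gene in these cells. The promoter search was also run on this list, where 18 genes had a window. The full glucocorticoid response element was found in 1 (5.56%), against 0.0111% of all genes. The short motif that is part of it was found in 3 (16.7%), against 21.3% of all genes. Of the 8 lower targets without overlap 6 had a window, and none held either motif. Sequence outside the windows was not searched.

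*Fkbp5*, a co-chaperone that restrains the glucocorticoid receptor, was counted at 80.8, 86.8 and 106 in control and at 72.1, 19.5 and 68.3 at 1 week. Pools 1 and 3 lay just below the lowest control and pool 2 far below it, with a log2 fold change of -0.98 ± 0.42. In DEX it stood at 546, 230 and 354, and the log2 fold change from DEX to 1 week was -2.95 with an adjusted p of 0.00581 in limma. *Hif3a*, a hypoxia-inducible factor subunit and known target, was counted at 6.69, 3.06 and 3.37 in control, at 2.76, 1.53 and 1.45 at 1 week and at 21.5, 19.1 and 24.8 in DEX. *Zbtb16*, a zinc finger repressor, was counted at 22.1, 15.9 and 19.9 in control and at 11, 9.69 and 13.1 at 1 week. *Mt1* and *Mt2* encode metallothioneins, which bind zinc and copper. *Mt1* was counted at 4337, 4267 and 4398 in control and at 3169, 1582 and 1382 at 1 week, and *Mt2* at 1025, 805 and 722 in control and at 676, 299 and 248 at 1 week. The 2 genes kept the same order of 1 week pools, with pool 1 nearest to control. *Cebpd*, a transcription factor of the C/EBP family, was counted at 458, 639 and 523 in control and at 347, 88.5 and 187 at 1 week, a log2 fold change of -1.58 ± 0.45. *Nfkbia*, the inhibitor of NF-κB, was counted at 187, 163 and 186 in control and at 156, 118 and 81.2 at 1 week.

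The exception was *Lyve1*, a hyaluronan receptor of lymphatic and macrophage cells, with 0 reads in the control pools and at most 3 reads in each 1 week pool. The other 13 targets overlapped with control, among them *Klf9*, *Errfi1*, *Dusp1*, *Tsc22d3*, *Per1* and *Sgk1*. *Klf9*, a Krüppel-like factor, was counted at 73.3, 105 and 178 in control and at 66.3, 17.1 and 96.7 at 1 week, where pool 3 lay inside the control range. *Errfi1*, an inhibitor of epidermal growth factor receptor signalling, was counted at 1712, 1015 and 480 in control and at 645, 500 and 120 at 1 week. Both had an unadjusted p under 0.05 in spite of the overlap. At 4 weeks *Fkbp5* stood at 100.2, 133 and 130 and *Hif3a* at 3.33, 1.97 and 1.08, and neither differed from 1 week at an adjusted p of 0.05 (0.701 and 1.00 in limma).

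**Figure D4:**
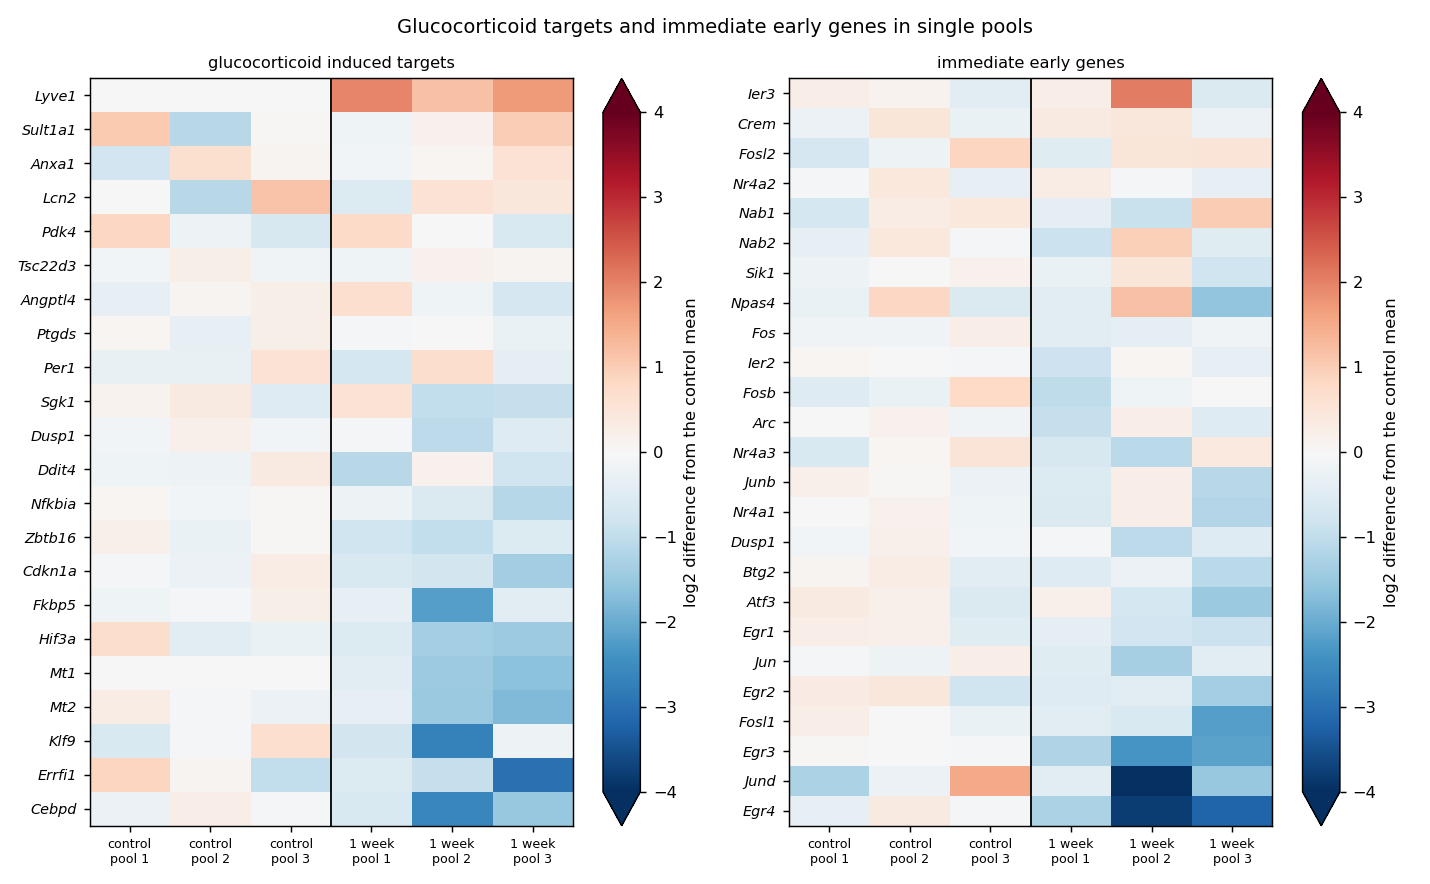
The 22 listed glucocorticoid induced targets (left) and 25 immediate early genes (right) in the 3 control and 3 pools of the 1 week group, with rows ordered by their mean at 1 week. Colour gives the log2 difference from the control mean of log2(value + 0.1), cut at 4 in either direction. Many of the lower rows are blue in all 3 of the 1 week pools, with list medians of -0.56 and -0.43.

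Of 11 genes that process pro-opiomelanocortin none lay outside the control range in every 1 week pool, and their median log2 fold change was 0.04. The granins and granule proteins, 11 genes, had pool medians of 0.24, 0.36 and -0.40 at 1 week and -0.12, 0.09 and 0.00 in control, so that pools 1 and 2 lay above all controls and pool 3 below them, and the median log2 fold change was 0.18, and 0.46 without pool 3. Of these genes only *Scg3*, which carries hormone precursors into secretory granules, was without overlap, at 232, 267 and 257 in control and 380, 319 and 314 at 1 week. It was higher by 0.42 ± 0.24 on the log2 scale, with an unadjusted p of 0.0995. *Vgf*, a granule protein and peptide precursor, followed the order of *Pomc*, at 114, 60.2 and 47.5 in control and 88.3, 194 and 41.4 at 1 week, and overlapped. *Pcsk1n*, an inhibitor of the convertase PCSK1, was counted at 890, 914 and 2160 in control and at 631, 500 and 1039 at 1 week and overlapped as well. Of 19 genes of the exocytosis machinery 1 lay below control in every pool, *Unc13a*, which primes vesicles for release, at 58.5, 50.5 and 56.8 in control and 40.1, 43.1 and 49.2 at 1 week. The 30 genes of endoplasmic reticulum folding had no member without overlap and a median of 0.19. Their pool medians were 0.15, 0.63 and -0.20 at 1 week against 0.06, 0.11 and -0.16 in control, so pool 2, which had the highest *Pomc*, also had the highest folding genes. In that pool *Calr*, a chaperone gene, was counted at 1296, against 502 to 567 in control, and *P4hb*, a disulphide isomerase gene, at 1748 against 720 to 733.

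Of 19 neuropeptide genes tested, 3 lay above control in all 1 week pools and none below, where 3.47% and 2.61% of all genes did so. Besides *Nmb* these were *Penk*, the enkephalin precursor, at 16.8, 12.6 and 11.5 in control and 30.0, 22 and 23.3 at 1 week, and *Edn3*, endothelin 3, at 1.65, 1.65 and 2.39 in control and 3.52, 3.95 and 4.00 at 1 week. *Penk* was higher still in DEX, at 51.6, 43.6 and 66.7, and stood at 22, 44.2 and 29.0 at 4 weeks. Its log2 fold change was 0.88 ± 0.29 at 1 week and 1.97 in DEX, with adjusted p of 1.00 and 0.0152 in limma, and these 2 comparisons share the control pools. Among 18 transcription factors of the lineage *Etv1* was without overlap, at 41.9, 36.4 and 24.0 in control and 56.2, 50.1 and 44.8 at 1 week. Among 15 receptors for inputs to the corticotroph, only *Vipr2*, a receptor for vasoactive intestinal peptide, was without overlap, and it rested on 1 control read against 13, of which 11 came from 1 week pool 1.

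Further lists showed few members outside the control range, to be read against the same 3.47% higher and 2.61% lower. Of 34 cyclic AMP signalling genes *Pde8b*, a phosphodiesterase, lay below control in every pool, at 9.76, 9.42 and 9.02 in control and 8.84, 3.19 and 4.89 at 1 week, and the list median was -0.16. *Adcy2*, an adenylyl cyclase, was counted at 35.4, 16.7 and 29.5 in control and at 20.2, 7.14 and 10.0 at 1 week, with an overlap in pool 1 only. Of 19 circadian clock genes none was without overlap, and 4 had an unadjusted p under 0.05, all lower, against 1.98% of all genes. They included *Nfil3*, a clock output repressor, at 190, 223 and 195 in control and 197, 93.9 and 70.3 at 1 week, with pool 1 inside the control range. Of 32 calcium and sodium channel genes *Trpc5* lay below in every pool, and of 29 potassium channel genes none did. Of 34 ribosomal protein genes 33 had positive log2 fold changes, against 50.2% of all genes, with a median of 0.41, but only *Rps6* was without overlap, and several of these genes have processed copies in the genome that can share reads. Of 13 mitochondrial transcripts all were positive with a median of 0.50, and 3 (*mt-Nd1*, *mt-Co1* and *mt-Co2*) lay above control without overlap. Pool 3 was the highest for the mitochondrial list, at a median of 1.19 against 0.35 and 0.36 in pools 1 and 2.

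**Figure D5:**
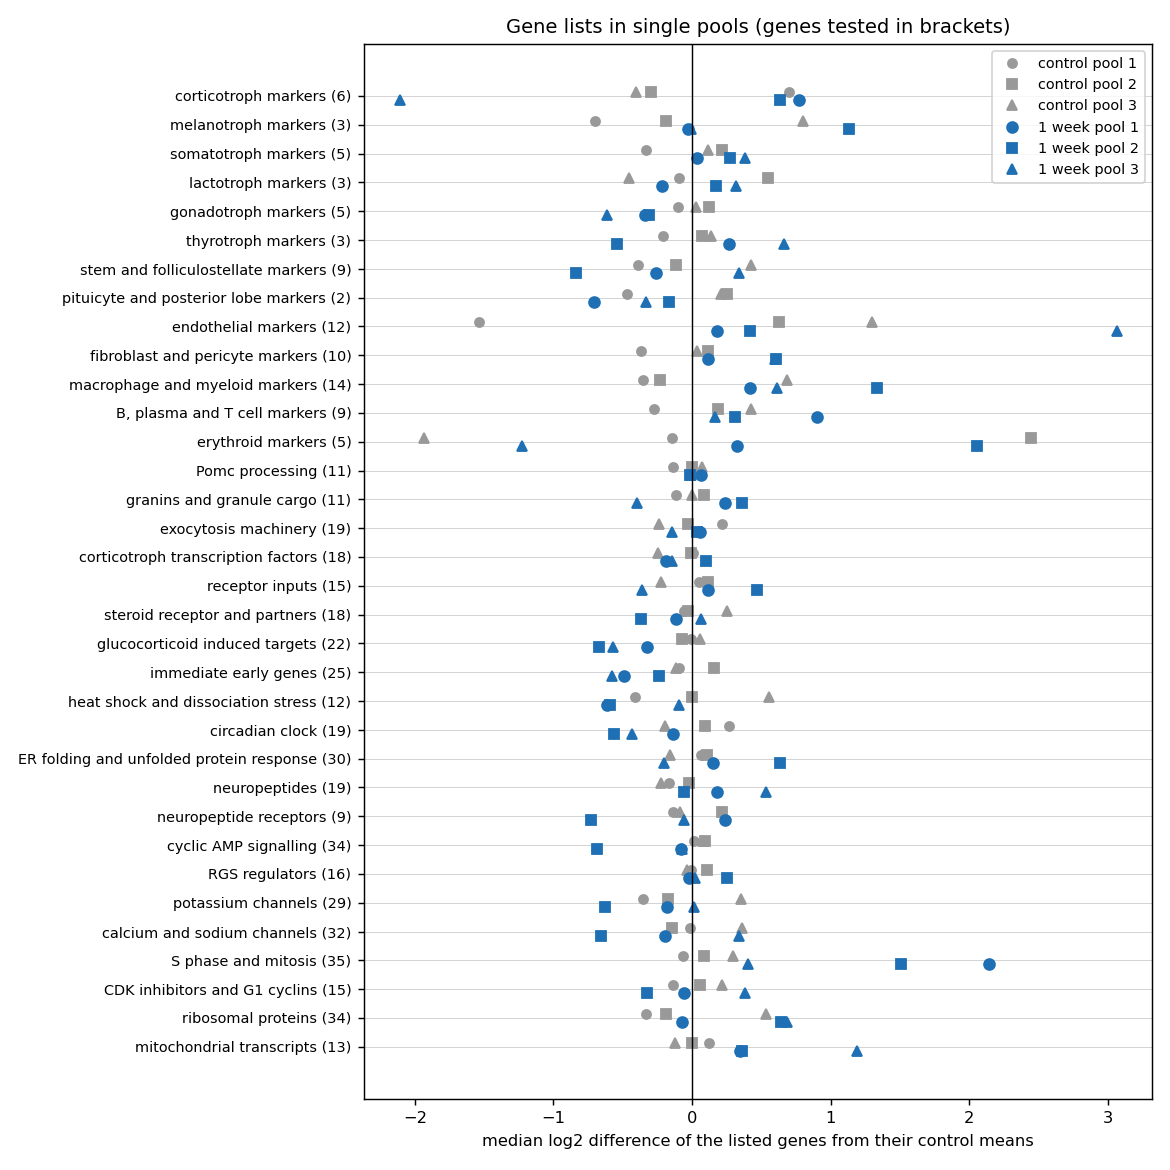
Median log2 difference from the control mean over the genes of each list, in single pools. Grey symbols are the control pools, blue symbols the 1 week pools, and the shape gives the pool number. For glucocorticoid induced targets and immediate early genes every 1 week pool lies below the controls, for S phase and mitosis pools 1 and 2 lie at 2.15 and 1.51, and corticotroph and endothelial markers set pool 3 apart at -2.11 and 3.07.

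Markers of other cell types differed between single pools. The 12 endothelial markers, all detected, summed to 11.4, 49.0 and 88.7 in control and to 37.4, 51.7 and 230 at 1 week, so 1 week pool 3, the lowest pool for *Tbx19*, *Crhr1*, *Avpr1b* and *Neurod1*, had the highest endothelial sum. Among the controls, pool 3 likewise had the highest endothelial sum and the lowest *Tbx19*, *Crhr1* and *Avpr1b*. The median log2 fold change of the endothelial markers was 1.03, and 0.15 without 1 week pool 3. *Pecam1*, an adhesion molecule of vessel walls, was counted at 0.0787, 1.06 and 2.07 in control and at 1.81, 4.72 and 12.5 at 1 week. The 14 macrophage and myeloid markers summed to 81.9, 109 and 204 in control and to 150, 268 and 181 at 1 week, which overlapped. Of the 14, 13 had positive log2 fold changes, against 50.2% of all genes, with a median of 0.68, and 0.88 without pool 3. In that list *Lyz2*, a lysozyme, and *Mrc1*, a mannose receptor, lay above control in every 1 week pool, as 3.47% of all genes did. *Lyz2* was counted at 10.7, 6.95 and 12 in control and at 13.0, 20.4 and 25.9 at 1 week. *Igha* and *Igkc*, the immunoglobulin heavy alpha and kappa constant genes of plasma cells, were counted at 89.3 and 43.4 in 1 week pool 1 alone, and at no more than 0.435 in any of the other 5 pools. The somatotroph markers summed to 79130 to 221569 in control and to 92083 to 221166 at 1 week, and the melanotroph markers to 63.6 to 120 and 71.9 to 155, both overlapping. Of the posterior lobe markers *Nkx2-1*, *Avp* and *Oxt* were too low to be tested. The part of these other cell types in the differences above was not tested. The cell cycle transcripts were highest in pool 1, which held the plasma cell transcripts, and lowest in pool 3, which held the most endothelial ones.

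The genes that the study itself placed as higher or lower at 1 week were chosen on these samples and give no independent evidence of direction. Of its 29 higher genes 12 were without overlap, all higher, and of its 12 lower genes 6 were, all lower, against 3.47% and 2.61% of all genes. Their medians were 1.60 and -1.41. The sets follow the study's own layout of its genes by group, whose placing differs from its running text for some genes. The higher set counts *Igha* and leaves out *Fbn1*, *Ido1*, *Penk*, *Klk1b24*, *Oaf* and *Col8a2*. The study's text gives *Igha* as suppressed and those others as still raised at 1 week. Beyond the genes already described, the higher set held *Il16*, a cytokine, at 2.44, 2.24 and 1.74 in control and 7.22, 11.3 and 4.56 at 1 week. The lower set held *Inhbb*, the beta B subunit of inhibin and activin, at 9.83, 7.42 and 7.39 in control and 4.37, 2.55 and 4.67 at 1 week, and *Tpm2*, a tropomyosin, at 1.81, 4.48 and 4.57 in control and 1.52, 0.255 and 0.333 at 1 week.

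The leading higher genes named here stood lower 4 weeks after withdrawal than at 1 week, but no difference between the 2 groups passed the test for them. *Ly6g6c*, *Hmmr*, *Ccnb2*, *Ccnb1* and *Nmb* were lower at 4 weeks than at 1 week by log2 differences of -3.38, -2.36, -2.55, -2.35 and -2.26, with adjusted p in limma of 0.577, 0.701, 0.701, 0.577 and 0.533. *Egr3* was counted at 18.0, 8.10 and 7.40 at 4 weeks, a log2 difference of -0.08 from 1 week with an adjusted p of 1.00. *Egr4* was counted at 70.5, 83.2 and 82.0 at 4 weeks, below every control and, except for 1 week pool 1, above the 1 week pools. For the listed immediate early genes the pool medians at 4 weeks were -0.33, -0.32 and -0.31, all below every control. For the glucocorticoid induced targets they were -0.06, -0.62 and -0.35, with 4 week pool 1 inside the control range. The lower position of these lists was thus not confined to 1 week. *Pomc* stood at 4362, 8521 and 4241 in DEX and at 49562, 48189 and 80216 at 4 weeks, the latter overlapping with control.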

How the data were processed

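The authors trimmed the reads with Trim Galore 0.6.5, aligned them to GRCm38 with STAR 2.7.1a and counted pairs on genes in reverse-stranded mode with featureCounts 2.0.0, per the paper's methods and the submitters' processing notes. The kits named do not mark strand, so overlapping genes on opposite strands cannot be told apart, and counting on 1 strand would leave out reads from the other. The RNA was too scarce to quantify and was amplified with SMART-V4. The values deposited by the authors are a normalised signal per gene, the CPM of the TMM-scaled library. Division by the value of 1 read returned whole counts for 100% of 271881 values (tolerance 1e-06). The submitters' notes name edgeR.

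Here, genes with a value over 0.1 in 3 or more of 12 libraries entered limma 3.58.1 (R 4.3.3) as log2(value + 0.1), with 4 groups in 1 model, trended moderation and Benjamini-Hochberg adjustment over 24736 genes; log2 fold changes are on that scale and understate those of low genes. The design had assumed plain CPM, and the test was kept. edgeR 4.0.16 and DESeq2 1.42.0 on the recovered counts were alternatives. Replicates are pools of cage mates. No pair of libraries held identical values. Deviations of same-numbered control and 1 week pools correlated at 0.136 to 0.397 over genes. Control and 1 week pools with other numbers ran from -0.272 to 0.131, all below the same-numbered pairs. Pairs of pools with other numbers, over all groups, ran from -0.273 to 0.382, and same-numbered pairs of the other groups from -0.294 to 0.190. These values neither establish nor exclude a pairing, and the labels state none. The main fit had no block, and a replicate block by pool number was fitted as an alternative. Tests were run on simulated counts with the same relative spread for every gene and changes only in genes of higher count. That check does not cover genes of low count or pools as unlike as those at 1 week. Members of a group at 3 reads or fewer in every library are given as count ratios, and intervals cover counting error only.

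The comparison, the lists of genes and the rule by which genes are named were chosen with earlier results of these data known. Named are listed genes without overlap or that define a cell type, the 10 higher and 10 lower genes with the smallest p among those without overlap, the 10 and 10 without 1 week pool 3 (each with a mean of at least 1 over the 6 pools), and the 5 and 5 of edgeR's quasi-likelihood test. Promoter windows came from RefSeq (GRCm38.p6), and gene positions from GENCODE on GRCm38.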

Additional observations from a re-analysis of the deposited data

How the results depend on the processing

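In limma 0 genes were called at 1 week with all libraries. The count was 2 with a pseudocount of 0.5, 3 with 1, 4 with array weights and 1 with robust moderation, all higher. It was 1 in edgeR's quasi-likelihood test, 51 in its likelihood ratio test (26 higher, 25 lower) and 13 in DESeq2 (11 higher, 2 lower). It stayed at 0 without a filter, with a filter at 1, with median ratio or quantile scaling and with only the 2 groups in the model. With a replicate block by pool number it was 0, with 1142 genes at an unadjusted p under 0.05, and the block changed no other call. Leaving out each library in turn gave 0 to 2 genes (0 to 2 higher, 0 to 1 lower): *Egr4* without 1 week pool 1, *Ly6g6c* without DEX pool 1 or 3, and *Ly6g6c* and *Hmmr* without 1 week pool 3. The quasi-likelihood test without that pool, added after seeing the data, gave 3, all higher. The cause of these differences was not tested.

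The number of genes above control without overlap was 558 with a filter at 1, which tests fewer genes. With 1 pool left out, which makes separation easier, it was 1404 to 2303, and below control 1311 to 2042. Without pool 3 of both groups it was 3985 and 3646.

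Log2 fold changes of a different sign came mostly from 1 week pool 3. Without it *Tbx19*, *Crhr1*, *Avpr1b* and *Neurod1* stood at 0.21, 0.46, 0.53 and 0.47, in the quasi-likelihood test at 0.14, 0.40, 0.24 and 0.58, and without pool 3 of both groups *Tbx19*, *Crhr1* and *Neurod1* stood at 0.02, 0.24 and 0.31 and *Avpr1b* at -0.03. *Neurod1* was also positive with array weights (0.79), in edgeR (0.17), in DESeq2 (0.16) and without control pool 1 (0.19). With 1 library left out, the values ran from -1.43 to 0.21 for *Tbx19*, -1.54 to 0.46 for *Crhr1*, -1.77 to 0.53 for *Avpr1b*, -0.83 to 0.47 for *Neurod1*, -0.19 to 0.93 for *Vgf* and -0.50 (without 1 week pool 1) to 4.25 for *Igha*. *Gm42446*, a predicted gene low in pools 1 and 2, was -1.28 in limma, 0.65 in edgeR and 0.68 in DESeq2.

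The cell cycle genes rest on low counts, and 3 pools against 3 cannot give an exact p under 0.1.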

Other observations

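A few receptor and signalling genes outside the groups described above also lay on one side of control in every 1 week pool, with no adjusted p under 0.05 in limma. *Trhr*, the receptor for thyrotrophin-releasing hormone, was counted at 2.99, 1.53 and 1.96 in control and at 1.14, 0.765 and 0.667 at 1 week. *Ntsr2*, a neurotensin receptor, was counted at 5.59, 6.60 and 6.31 in control and at 4.09, 1.53 and 5.11 at 1 week. *Rgs14*, a regulator of G protein signalling, had 0 reads in control and 10 reads at 1 week, and *Plb1*, a phospholipase, had 0 and 12.

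Counts of listed genes without overlap also depended on which pools were taken, in alternatives chosen after seeing the data. The S phase and mitosis genes above control numbered 14 with all pools, 24 without 1 week pool 3 and 27 without pool 3 of both groups, where 16.1% of all genes did so. The glucocorticoid targets below control numbered 8 with all pools, 9 without 1 week pool 3, against 8.26% of all genes, and 10 without pool 3 of both groups, against 14.7%. The immediate early genes below control numbered 4 with all pools and up to 11, the latter without 1 week pool 2, where 5.61% of all genes did so.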
